A study of Mus musculus with 63 samples.

Results

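Pdxdc1, Dap3, Ppib, Tpm3 and Tpm3-rs7 are 5 of the 55401 genes counted in RNA from mouse dorsal hippocampus, and together they carry 47 of the 117135 transcripts counted there. They were chosen on measured values. Pdxdc1, Dap3, Ppib and Tpm3 stood at ranks 1, 2, 3 and 4 by p among 9511 genes tested for a strain difference in transcript usage, which is the split of a gene's counts over its transcripts. Tpm3-rs7 was taken with them as the near-identical copy of Tpm3 and has 1 transcript. All strain differences of these genes are therefore given as a description, with no test, and ethanol, conditioning and sex are the comparisons tested.

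The animals were adolescent mice of the inbred strains DBA/2J and C57BL/6J, male (M) and female (F). They received ethanol (EtOH, 1.5 g/kg) or Saline and were fear conditioned (FC) or served as noFC controls. The 16 combinations of strain, sex, drug and conditioning held 4 libraries each, except male FC Saline C57BL/6J mice with 3, which gave 32 DBA/2J and 31 C57BL/6J libraries. The labels do not say whether each library came from its own animal, so p-values measure the spread between these libraries. The titles carry numbers that fall into a lower and an upper range. Within each range, the letter that ends a title marked a single combination of drug and conditioning. The letters of EtOH and Saline changed places between the ranges, while those of FC and noFC were the same in both. Conditioning and whatever the letter stands for therefore cannot be told apart, nor can drug and letter within a range. Each title number held libraries of a single strain and sex. Strain and sex are thus compared between title numbers, and their tests take no account of any likeness among libraries with the same number.

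Pdxdc1 encodes a protein with a pyridoxal phosphate-dependent decarboxylase domain. Dap3 encodes a GTP-binding protein of the small subunit of the mitochondrial ribosome. Ppib encodes cyclophilin B, a peptidyl-prolyl isomerase that helps secreted proteins fold in the endoplasmic reticulum, and Tpm3 encodes a tropomyosin, a coiled-coil protein that lies along actin filaments and in neurons marks particular filament populations. A gene can have several transcripts through alternative promoters, exons and 3' ends, or through retained introns. A retained intron transcript keeps intron sequence that the spliced messenger RNA lacks.

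The genes lie on 4 chromosomes of the mouse build GRCm38, with transcripts named as in GENCODE M21. Pdxdc1 (ENSMUSG00000022680) spans chr16:13833148-13903131 on the minus strand and Dap3 (ENSMUSG00000068921) spans chr3:88920803-88951181 on the minus strand. Tpm3 (ENSMUSG00000027940) spans chr3:90072649-90100902 on the plus strand, 1121467 bases from Dap3. Ppib (ENSMUSG00000032383) spans chr9:66060222-66066623 and Tpm3-rs7 (ENSMUSG00000058126) spans chr14:113314608-113316754, both on the plus strand. Of the transcripts of the 4 genes other than Tpm3-rs7, 13 had a mean share of at least 5% in either strain, and 4 of them are annotated as retained introns, 1 in each gene.

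The sequences at the points where these transcripts part are shown because they are what a read must hold to tell one transcript from another. All are read 5′ to 3′ on the gene's strand. In Pdxdc1 the split lies around exon 23, which has 230 bases. Pdxdc1-201 joins exon 23 to exon 24, Pdxdc1-215 runs past the end of exon 23 for another 794 bases, and Pdxdc1-204 skips exon 23. Capitals mark the bases after the junction or after the end of exon 23, which lie within chr16:13834817-13836415 for Pdxdc1-201, chr16:13836356-13836415 for Pdxdc1-215 and chr16:13834824-13837072 for Pdxdc1-204.
Pdxdc1-201: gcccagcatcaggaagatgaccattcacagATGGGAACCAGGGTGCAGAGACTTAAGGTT
Pdxdc1-215: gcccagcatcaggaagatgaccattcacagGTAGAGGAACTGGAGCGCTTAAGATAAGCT
Pdxdc1-204: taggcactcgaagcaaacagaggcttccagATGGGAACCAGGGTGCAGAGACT

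In Ppib the split lies at the end of exon 3. Ppib-201 splices to exon 4, and Ppib-202 keeps intron 3, which has 2404 bases (chr9:66063083-66065486). Capitals mark the bases after the end of exon 3, within chr9:66063053-66065516 for Ppib-201 and chr9:66063053-66063112 for Ppib-202.
Ppib-201: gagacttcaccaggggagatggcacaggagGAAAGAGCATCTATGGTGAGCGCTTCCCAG
Ppib-202: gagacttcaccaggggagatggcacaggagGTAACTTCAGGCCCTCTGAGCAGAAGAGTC

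In Dap3 the retained intron transcript Dap3-208 starts with 131 bases of the intron before exon 12. Capitals mark the bases before exon 12, within chr3:88925382-88926301 for Dap3-201 and chr3:88925382-88925441 for Dap3-208. Dap3-201 and Dap3-207 share 1188 bases and differ at both ends, with first exons of 547 bases in Dap3-201 and 221 bases in Dap3-207. Their last exons have 3111 bases in Dap3-201 and 86 bases in Dap3-207.
Dap3-201: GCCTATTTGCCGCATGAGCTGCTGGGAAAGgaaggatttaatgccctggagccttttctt
Dap3-208: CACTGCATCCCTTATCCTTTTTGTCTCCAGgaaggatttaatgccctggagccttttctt

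In Tpm3 the transcripts use 1 of a pair of alternative internal exons, each of 76 bases. Tpm3-201 holds the exon at chr3:90088401-90088476, and Tpm3-202 and Tpm3-203 hold the exon at chr3:90089048-90089123. The matching stretch of Tpm3-rs7-201 is at chr14:113315131-113315206. Capitals mark the bases that differ from the exon of Tpm3-201, which are 37 in Tpm3-202 and Tpm3-203 and 0 in Tpm3-rs7-201.
Tpm3-201: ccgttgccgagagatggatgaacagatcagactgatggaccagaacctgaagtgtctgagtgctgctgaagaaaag
Tpm3-202 and Tpm3-203: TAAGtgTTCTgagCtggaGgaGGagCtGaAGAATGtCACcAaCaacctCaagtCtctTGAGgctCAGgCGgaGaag
Tpm3-rs7-201: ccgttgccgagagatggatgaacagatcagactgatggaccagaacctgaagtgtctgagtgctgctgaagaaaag

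The copy Tpm3-rs7 is a single exon of 2147 bases. Its coding sequence and that of Tpm3-201 have 744 bases each and differ by 3 substitutions, G72A, G98A and G127A, with Tpm3-201's base first and positions counted from 1 at the first coding base of Tpm3-201. That is an identity of 99.6%, and over the whole transcripts 2089 of 2109 aligned positions were identical. The stretch of 90 bases from coding position 54 to 143 holds all 3 substitutions, which are the capitals below. It lies within chr3:90079785-90086456 for Tpm3-201 and at chr14:113314729-113314818 for Tpm3-rs7-201.
Tpm3-201: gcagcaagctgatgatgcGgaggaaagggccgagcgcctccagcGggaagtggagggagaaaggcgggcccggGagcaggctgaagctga
Tpm3-rs7-201: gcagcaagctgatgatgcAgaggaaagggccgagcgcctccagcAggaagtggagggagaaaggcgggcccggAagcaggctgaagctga

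**Figure D1:**
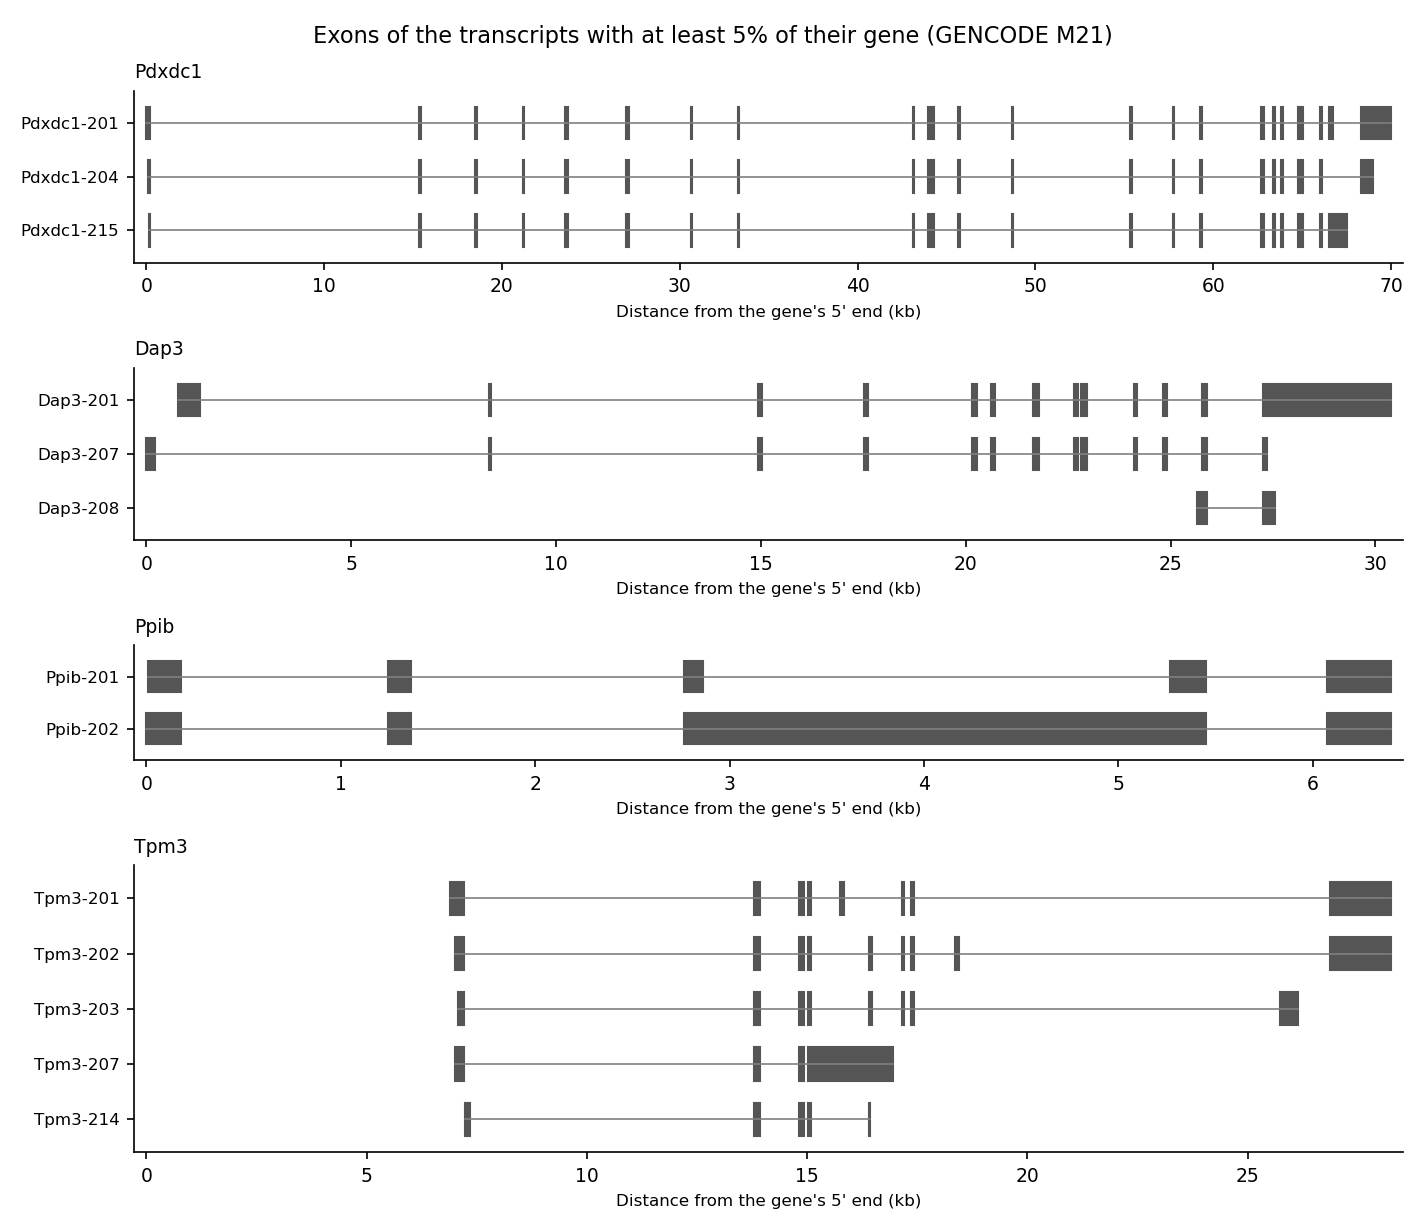
Exons of the transcripts with a mean share of at least 5% in either strain, 1 panel per gene, drawn to scale against the distance from the gene's 5' end in kb. The transcripts of Pdxdc1 part near exon 23, Ppib-202 fills intron 3, Dap3-201 has the long last exon, and the Tpm3 transcripts differ in their internal and last exons.

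Gene counts per library ran from 21027659 to 61631742 (median 26379948), and estimated transcript counts from 22387908 to 65167897 (median 28019628). CPM stands for a count divided by all counts of its library in the same table and brought to one scale for all libraries. Per the labels the tissue was dorsal hippocampus, and all 10 genes of the list of hippocampal pyramidal and granule cell markers were detected. Their summed level was 939 to 1437 CPM in DBA/2J and 1132 to 1542 CPM in C57BL/6J. Astrocyte markers (6 of 6 detected) averaged 5648 ± 377 CPM in DBA/2J and 4952 ± 284 CPM in C57BL/6J as a sum (SD, n = 32 and 31). Most of that difference was Slc1a2, at 3906 CPM in DBA/2J and 3278 CPM in C57BL/6J. Aqp4 and Gja1 were also higher in DBA/2J, while Gfap, Aldh1l1 and Slc1a3 were higher in C57BL/6J. Oligodendrocyte markers (8 of 8) summed to 5102 to 14702 CPM in DBA/2J and 8082 to 18449 CPM in C57BL/6J, and blood markers (3 of 3) averaged 224 ± 136 CPM in DBA/2J and 104 ± 63.6 CPM in C57BL/6J (SD, n = 32 and 31). Choroid plexus markers (8 of 8) ranged over libraries of both strains, from 225 to 17185 CPM in DBA/2J and from 187 to 18704 CPM in C57BL/6J. The part of these cell types in the strain values below was not tested. In whole tissue, fewer cells of a type and less RNA per cell cannot be told apart.

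Pdxdc1 was dominated by its retained intron transcript in DBA/2J and by 2 spliced transcripts in C57BL/6J. Pdxdc1-215 held 84.8 ± 2.44% of the gene's transcript counts in DBA/2J libraries (lowest 81.2, median 84.0, highest 91.2%) and 17.0 ± 1.49% in C57BL/6J libraries (13.6, 16.7 and 19.8%; SD, n = 32 and 31). Pdxdc1-201, the annotated protein-coding transcript with exon 23 joined to exon 24, held 8.46 ± 1.70% in DBA/2J (3.85, 8.70 and 11.8%) and 42.5 ± 2.45% in C57BL/6J (37.0, 42.7 and 49.1%). Every DBA/2J library lay on the far side of every C57BL/6J library for both. Pdxdc1-204, the protein-coding transcript without exon 23, held 0.0913 ± 0.195% in DBA/2J (0, 0 and 0.763%) and 34.7 ± 2.81% in C57BL/6J (29.5, 34.2 and 39.6%). It was at 0 in 24 of 32 DBA/2J libraries. By counting error alone, 0 there allows a share of up to 0.0973% to 0.206% by library (3 counts of the gene's transcript sum). This bound leaves out how reads shared with other transcripts were allotted, so the share may be higher.

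As a level, Pdxdc1-215 stood at 52.6 CPM in DBA/2J and 15.4 CPM in C57BL/6J, while Pdxdc1-201 and Pdxdc1-204 stood at 5.27 and 0.0572 CPM in DBA/2J and at 38.6 and 31.5 CPM in C57BL/6J. The whole gene was at 65.9 ± 3.39 CPM in DBA/2J (59.2 to 74.1 CPM) and 95.2 ± 4.54 CPM in C57BL/6J (85.7 to 106.6 CPM), with no overlap. The 12 other transcripts of Pdxdc1 summed to 6.68% in DBA/2J and 5.88% in C57BL/6J, and none of them averaged above 3.61% in a strain.

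Dap3 had a different leading transcript in each strain, out of 2 protein-coding ones with different ends, Dap3-201 with the long last exon and Dap3-207 with the short one. Dap3-201 held 58.4 ± 2.26% in DBA/2J (54.6, 58.4 and 63.5%) and 19.4 ± 1.51% in C57BL/6J (16.2, 19.2 and 22.4%). Dap3-207 held 26.7 ± 3.03% in DBA/2J (20.1, 26.9 and 33.0%) and 54.3 ± 3.02% in C57BL/6J (47.4, 54.0 and 59.6%). The order of these 2 transcripts was the reverse in every library of one strain against every library of the other, as their ranges show. The retained intron transcript Dap3-208 was the smaller in DBA/2J, at 10.6 ± 1.12% (7.95, 10.8 and 12.3%), against 17.8 ± 1.44% in C57BL/6J (15.1, 17.5 and 21.1%).

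Per length, Dap3-201 stood at 6.62 CPM per kb in DBA/2J and 2.48 CPM per kb in C57BL/6J, and Dap3-207 at 10.2 CPM per kb in DBA/2J and 23.5 CPM per kb in C57BL/6J. So Dap3-207 exceeded Dap3-201 per length in both strains, although Dap3-201 took most of the counts in DBA/2J. The gene as a whole differed least of the 5, at 57.3 ± 2.45 CPM in DBA/2J (53.0 to 62.8 CPM) and 65.2 ± 3.12 CPM in C57BL/6J (59.4 to 73.0 CPM), and these ranges overlapped. The 10 other transcripts of Dap3 summed to 4.27% in DBA/2J and 8.49% in C57BL/6J.

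Ppib has 2 transcripts, and most of its strain difference in level lay in the one with the retained intron. Ppib-202 held 5.96 ± 0.672% in DBA/2J (4.92, 5.86 and 7.28%) and 47.9 ± 3.46% in C57BL/6J (37.6, 48.4 and 52.9%), with no overlap. It stood at 4.60 ± 0.506 CPM in DBA/2J and 63.1 ± 4.80 CPM in C57BL/6J. The spliced, protein-coding Ppib-201 stood at 72.7 ± 4.80 CPM in DBA/2J (65.8, 72.5 and 82.8 CPM) and 68.8 ± 5.51 CPM in C57BL/6J (59.8, 67.7 and 85.8 CPM), and these ranges overlapped. Its share was 94.0 ± 0.672% in DBA/2J and 52.1 ± 3.46% in C57BL/6J. The gene count, 80.8 ± 5.14 CPM in DBA/2J (73.1 to 92.2 CPM) and 132.6 ± 5.10 CPM in C57BL/6J (125.5 to 144.3 CPM), did not overlap. Per length, Ppib-201 was the higher of the 2 in both strains, with 81.5 CPM per kb against 1.39 for Ppib-202 in DBA/2J and 77.2 CPM per kb against 19.1 for Ppib-202 in C57BL/6J.

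Shares of the 2 largest Tpm3 transcripts, which hold different internal exons, lay closer together between strains than those of the other genes. Tpm3-201 held 48.3 ± 3.85% in DBA/2J (39.3, 48.8 and 54.5%) and 56.4 ± 3.02% in C57BL/6J (49.6, 56.5 and 61.6%). Tpm3-202 held 19.0 ± 3.54% in DBA/2J (13.1, 18.7 and 28.1%) and 32.8 ± 3.25% in C57BL/6J (27.5, 32.6 and 39.8%). The strains overlapped in both transcripts. Tpm3-203, which ends at another last exon, held 17.9 ± 1.83% in DBA/2J (12.7, 18.3 and 20.4%) and 4.88 ± 0.596% in C57BL/6J (3.94, 4.82 and 5.90%). The retained intron transcript Tpm3-207 held 5.13 ± 0.771% in DBA/2J (3.77, 5.11 and 7.21%) and 1.99 ± 0.397% in C57BL/6J (1.22, 2.02 and 2.72%). These last 2 transcripts did not overlap between strains. The short Tpm3-214 held 5.36 ± 2.15% in DBA/2J (0, 5.14 and 9.45%) and 1.65 ± 0.797% in C57BL/6J (0, 1.91 and 3.18%), with overlap, and the 11 others summed to 4.29% in DBA/2J and 2.25% in C57BL/6J.

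**Figure D2:**
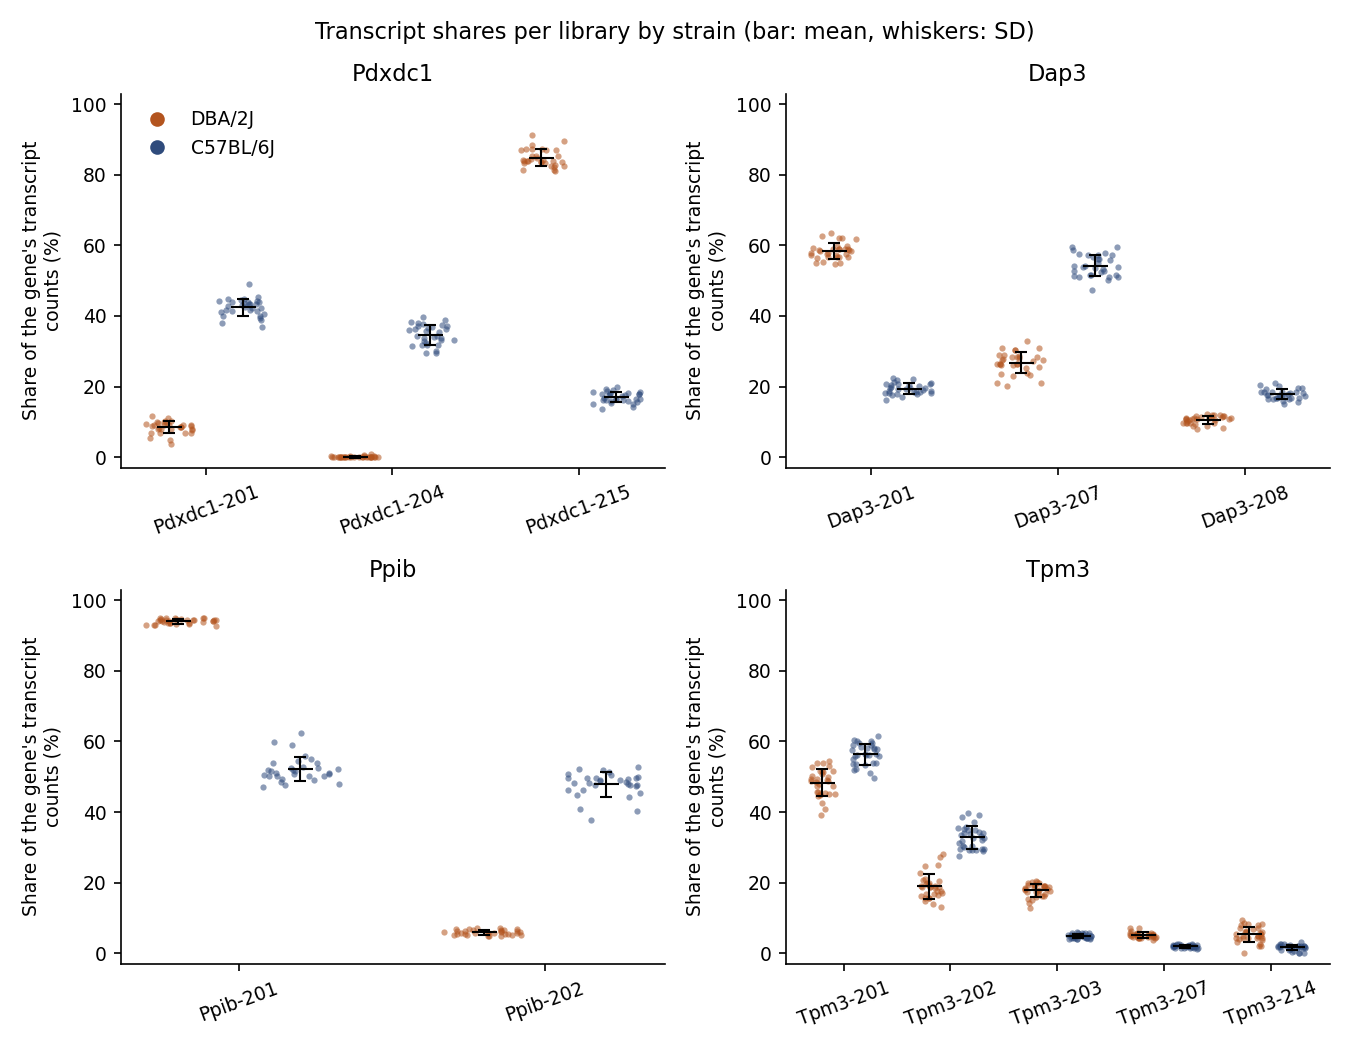
Share of each gene's transcript counts (%, vertical axis) for its main transcripts, 1 point per library, with DBA/2J left of C57BL/6J for each transcript; bars are strain means and whiskers the SD (n = 32 and 31). Pdxdc1-215 lies between 81.2 and 91.2% in DBA/2J and between 13.6 and 19.8% in C57BL/6J, while Tpm3-201 overlaps between the strains.

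Tpm3 and its copy Tpm3-rs7 were high in opposite strains, while the sum of both overlapped between strains. In the transcript counts, Tpm3-rs7 stood at 86.8 ± 4.29 CPM in DBA/2J (78.0, 87.3 and 95.4 CPM) and 0.476 ± 0.341 CPM in C57BL/6J (0, 0.464 and 1.46 CPM). Tpm3 summed over its transcripts stood at 62.3 ± 3.05 CPM in DBA/2J (56.8, 62.2 and 68.3 CPM) and 150.8 ± 3.76 CPM in C57BL/6J (142.7, 150.3 and 157.9 CPM). The strains did not overlap for either gene. The sum of both was 149 ± 4.95 CPM in DBA/2J (138.8, 149.4 and 160.6 CPM) and 151 ± 3.78 CPM in C57BL/6J (143.3, 150.7 and 158.5 CPM), which overlapped over most of their range. Tpm3-rs7 took 58.2 ± 1.81% of that sum in DBA/2J and 0.314 ± 0.225% in C57BL/6J.

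The gene counts showed the same order with other sizes. Tpm3-rs7 stood at 41.5 ± 2.09 CPM in DBA/2J (37.9, 41.5 and 47.4 CPM) and 8.32 ± 0.620 CPM in C57BL/6J (7.06, 8.49 and 9.36 CPM). Tpm3 stood at 49.3 ± 1.93 CPM in DBA/2J (45.3, 49.2 and 53.1 CPM) and 87.1 ± 2.86 CPM in C57BL/6J (81.7, 87.0 and 91.9 CPM). Neither overlapped, and the sum of both was 90.8 ± 3.02 CPM in DBA/2J and 95.4 ± 3.09 CPM in C57BL/6J. Tpm3-rs7 was thus 8.73% of the pair in C57BL/6J by gene counts and 0.314% by transcript counts.

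The assignment of reads between these 2 genes is uncertain. Of the 2156 stretches of 75 bases (the read length) along Tpm3-201, 1220 also occur in Tpm3-rs7-201 and 114 occur in Tpm3-201 alone. Of the 2073 stretches along Tpm3-rs7-201, 853 occur in that transcript alone. The gene count of Tpm3 was 74.7% of its transcript sum in DBA/2J and 54.7% in C57BL/6J, and that of Tpm3-rs7 was 45.2% of its transcript sum in DBA/2J. For Pdxdc1, Dap3 and Ppib the gene count was 95.2% to 101% of the transcript sum in either strain. With the gene count as the denominator, a transcript's value is a ratio between 2 sets of counts, not a part of a whole. The gene count of Tpm3 was the smaller, and more so in C57BL/6J, which enters the strain difference. That difference (DBA/2J minus C57BL/6J) was −38.3 percentage points for Tpm3-201, −34.7 for Tpm3-202 and 15.0 for Tpm3-203. As shares of the transcript sum they differed by −8.08, −13.8 and 13.

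**Figure D3:**
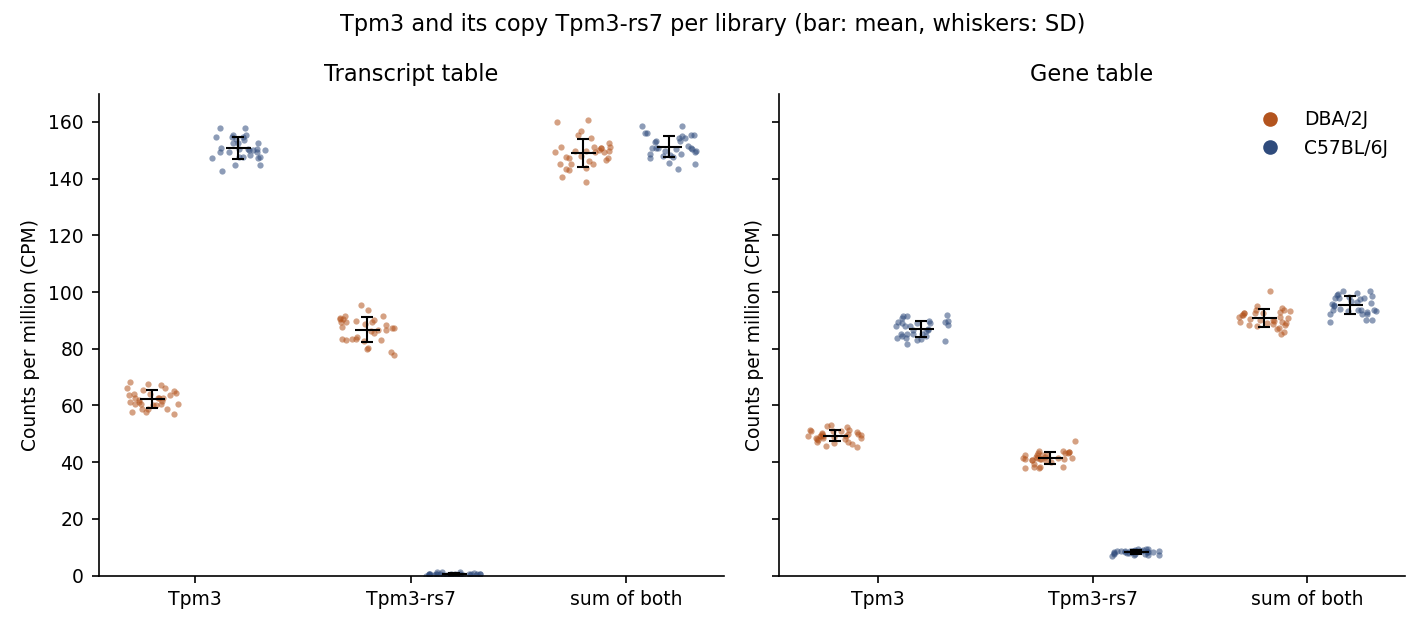
Level of Tpm3, Tpm3-rs7 and their sum (CPM, vertical axis) per library in the transcript counts and in the gene counts, with DBA/2J left of C57BL/6J; bars are means and whiskers the SD (n = 32 and 31). Tpm3-rs7 is high in DBA/2J and near 0 in C57BL/6J in the transcript counts, Tpm3 is the reverse, and the sums overlap.

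The transcripts also differ in how many reads can tell them apart. Pdxdc1-204 and Ppib-201 have 71 stretches of 75 bases each that occur in no other transcript, of 2806 and 818 along them, while Ppib-202 has 2334 of 3231 and Dap3-201 has 3185 of 4686. Outside Tpm3 and Tpm3-rs7, at most 151 stretches of a listed transcript occurred in another gene. These stretches were counted on GRCm38 sequence, the only build that the processing notes name for both strains. The part of sequence differences between the strains in the shares and levels above was not tested.

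The strain differences are also described in subsets of the libraries. The genes were chosen on all of these libraries together, so likeness between the subsets is no separate support. Pdxdc1-215 was higher in DBA/2J by 66.6 percentage points in the lower range of title numbers and by 68.9 in the upper range, by 67.6 in males and by 68.0 in females. Dap3-201 was higher by 39.0 points in each range, and Ppib-202 differed by −42.2 points in the lower and by −41.6 in the upper range. Tpm3-203 was higher by 12.7 points in the lower and by 13.3 in the upper range. In the fits over all features, 25.7% of the 9511 genes tested for usage and 50% of the 19974 genes tested for counts were called for strain, and nothing is read from these beside genes chosen on that contrast.

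The shares of the 4 retained intron transcripts were also set against each other from library to library. Within each strain, 6 pairs of these transcripts were compared over libraries, 12 relations in all, and none passed a permutation test after Benjamini-Hochberg adjustment (lowest adjusted p 0.350 for Pearson's r and 0.271 for Spearman's rho). The lowest unadjusted p was 0.0226, for Dap3-208 and Tpm3-207 in C57BL/6J (rho −0.41, r −0.34, n = 31). Leaving out the 2 libraries farthest from the median of Dap3-208 gave r −0.40. In DBA/2J the same pair had r 0.31 (rho 0.23, adjusted p 0.350 and 0.558, n = 32), and r 0.16 without the 2 farthest.

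Acute ethanol was the first treatment compared, in each strain, as EtOH minus Saline averaged over sex and conditioning. The strain pattern of every gene was present under both drugs. Across the 4 combinations of drug and conditioning, the mean share in DBA/2J ran from 84.3 to 85.4% for Pdxdc1-215, from 57.2 to 59.5% for Dap3-201, from 5.67 to 6.19% for Ppib-202 and from 17.2 to 18.6% for Tpm3-203. In C57BL/6J the same means ran from 16.3 to 17.6%, from 19.0 to 20.1%, from 46.5 to 48.9% and from 4.58 to 5.24%. These spreads within a strain are small beside the strain differences above. Tpm3-rs7 ran from 84.7 to 88.6 CPM in DBA/2J and from 0.231 to 0.754 CPM in C57BL/6J in the transcript counts.

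For transcript usage under ethanol, 0 of 4 genes were called at an adjusted p under 0.05 (limma voom and diffSplice, Simes p per gene) in DBA/2J, where 1.37% of all genes tested were, and 0 of 4 in C57BL/6J, where 0.831% were. At an unadjusted p under 0.05 there was 1 in DBA/2J, Dap3, and 0 in C57BL/6J. Except for conditioning gene counts, the share of all genes at that level is not given here or below. Nothing is read from such counts. The other tool, edgeR's diffSpliceDGE, also called 0 of 4 in each strain. Over all genes it called 38 in DBA/2J and 51 in C57BL/6J, against 130 and 79 with limma. Dap3-201, the transcript with the long last exon, held 57.4 ± 1.73% in EtOH DBA/2J libraries (54.6, 57.7 and 59.8%) and 59.4 ± 2.31% in Saline DBA/2J libraries (56.5, 58.8 and 63.5%; SD, n = 16 each), and the groups overlapped. Its log2 difference relative to the other Dap3 transcripts was −0.14 (SE 0.0586, limma adjusted p 0.434), and that of the gene had an adjusted p of 0.395. In C57BL/6J it held 19.8 ± 1.43% in EtOH and 19.0 ± 1.54% in Saline libraries (n = 16 and 15). The difference of the ethanol effects between strains, DBA/2J minus C57BL/6J, was −0.17 for Dap3-201 (SE 0.0873, limma adjusted p 0.610).

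For gene counts under ethanol, edgeR's quasi-likelihood test called 0 of 5 genes in DBA/2J and 0 of 5 in C57BL/6J, against 0.295% and 0.0901% of all genes tested. None had an unadjusted p under 0.05, and DESeq2 called 0 as well. The log2 differences of the 5 genes lay between −0.03 and 0.05 in DBA/2J and between −0.0011 and 0.04 in C57BL/6J. Their 95% intervals reached from −0.09 to 0.09 in DBA/2J and from −0.06 to 0.09 in C57BL/6J, so changes above those sizes lie outside them.

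The ethanol effect was also compared between strains. For usage 0 of 4 genes were called against a background of 1.22%, with 0 at an unadjusted p under 0.05, and for gene counts 0 of 5 against 0.01%. Tpm3 was the 1 gene with an unadjusted p under 0.05 (edgeR p 0.0344, adjusted p 1.0). It stood at 48.9 ± 1.91 CPM in EtOH and 49.7 ± 1.93 CPM in Saline DBA/2J libraries (n = 16 each). In C57BL/6J it stood at 88.3 ± 2.39 CPM in EtOH libraries (83.9, 89.1 and 91.9 CPM) and 85.7 ± 2.75 CPM in Saline libraries (81.7, 85.1 and 91.4 CPM; n = 16 and 15). The groups overlapped in both strains, and the difference of the log2 effects was −0.06. The share of all genes at an unadjusted p under 0.05 is not given, so nothing is read from this 1 gene.

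Fear conditioning, FC minus noFC averaged over sex and drug, was the second treatment. For usage, 0 of 4 genes were called in DBA/2J and 0 of 4 in C57BL/6J, each against a background of 0.526%, and diffSpliceDGE called 0 in each. Over all genes diffSpliceDGE called 45 in DBA/2J and 55 in C57BL/6J, against 50 in each with limma. With limma, Pdxdc1 in DBA/2J was the 1 gene with an unadjusted p under 0.05 (limma adjusted p 0.378), and there was none in C57BL/6J. The share of all genes at that level is not given, so nothing is read from this. Pdxdc1-201 held 9.08 ± 1.44% in FC DBA/2J libraries (6.83, 9.19 and 11.8%) and 7.85 ± 1.76% in noFC DBA/2J libraries (3.85, 8.23 and 10.1%; n = 16 each). The groups overlapped over most of their range. The log2 difference relative to the other Pdxdc1 transcripts was 0.22 for Pdxdc1-201 (SE 0.0915, limma adjusted p 0.490) and −0.21 for the retained intron transcript Pdxdc1-215 (SE 0.0909, limma adjusted p 0.534). Tpm3-203 held 18.6 ± 1.49% in FC and 17.2 ± 1.95% in noFC DBA/2J libraries, a log2 difference of 0.16 (SE 0.0789, limma adjusted p 0.703).

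No gene count among all 19974 genes was called for conditioning by edgeR in either strain or for its difference between strains, a background of 0%, so 0 of 5 here carries little information. At an unadjusted p under 0.05, edgeR gave 670 genes in DBA/2J, 786 in C57BL/6J and 725 for the difference, and none of the 5. DESeq2 called 0, 6 and 0 genes, again none of the 5. The log2 differences of the 5 lay between −0.01 and 0.02 in DBA/2J, with 95% intervals from −0.06 to 0.07, and between −0.06 and 0.01 in C57BL/6J, with intervals from −0.13 to 0.06. For the difference of the conditioning effects between strains, usage gave 0 of 4 against 0.652%, with 0 at an unadjusted p under 0.05.

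Tpm3-214, the short transcript, entered these usage tests only when transcripts under 5% of their gene's counts over all libraries were kept. Tpm3 was then called for ethanol in DBA/2J, for conditioning in DBA/2J and for the difference of the conditioning effects between strains (limma Simes adjusted p 0.0436, 0.00174 and 0.0300), and in none of these without 1 library. Tpm3-214 held 5.90 ± 2.08% in FC DBA/2J libraries (2.17, 5.72 and 9.45%) and 4.82 ± 2.15% in noFC DBA/2J libraries (0, 4.65 and 8.38%; n = 16 each), and the groups overlapped. In C57BL/6J it held 1.64 ± 0.978% in FC and 1.66 ± 0.613% in noFC libraries (n = 15 and 16). One EtOH noFC DBA/2J library had none of it. With all libraries the log2 difference for conditioning in DBA/2J was 0.97 (SE 0.195, limma adjusted p 0.00116). Without that library it was 0.11 (SE 0.147, limma adjusted p 1.0). For ethanol in DBA/2J the log2 difference was −0.74 with all libraries (limma adjusted p 0.0314), although the mean share was 5.53 ± 2.74% in EtOH and 5.20 ± 1.42% in Saline libraries, and without that library it was 0.12 (limma adjusted p 1.0).

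**Figure D4:**
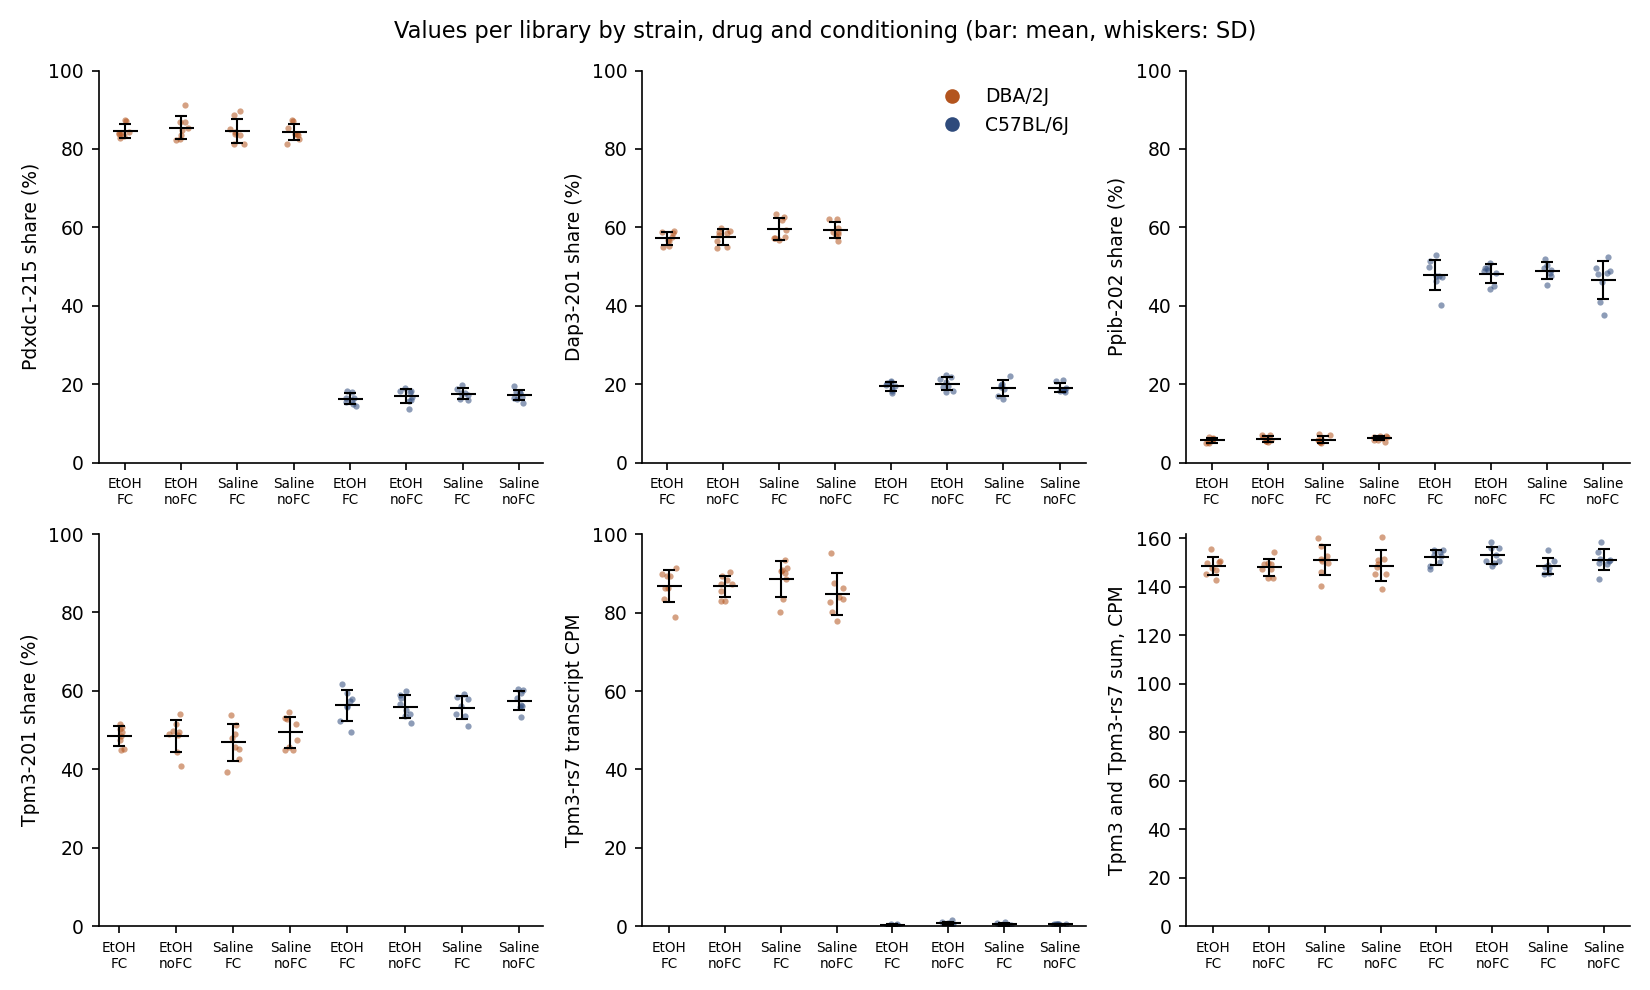
Values per library in the 4 combinations of drug and conditioning within each strain, DBA/2J left of C57BL/6J, as shares of the gene's transcript counts (%) or as CPM on the vertical axes; bars are means and whiskers the SD (n = 8 libraries, 7 for C57BL/6J Saline FC). The mean share of Pdxdc1-215 stays between 84.3 and 85.4% in DBA/2J and between 16.3 and 17.6% in C57BL/6J.

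Between males and females, averaged over strain, drug and conditioning, 0 of 4 genes were called for usage against 1.31%, and 0 of 5 for gene counts against 0.2%. None of the genes had an unadjusted p under 0.05 in either test, and diffSpliceDGE and DESeq2 called 0. Over all genes diffSpliceDGE called 48 for usage, against 125 with limma. With diffSpliceDGE, Pdxdc1 had an unadjusted p of 0.000972 for usage (adjusted p 0.113). The gene count differences, male minus female, lay between −0.03 and 0.02 in log2, with 95% intervals from −0.07 to 0.07. Among transcripts, Pdxdc1-201 had a log2 difference of −0.12 (SE 0.0587, limma adjusted p 0.445), with 7.91 ± 1.93% in male and 9.02 ± 1.27% in female DBA/2J libraries, and 42.3 ± 2.31% in male and 42.7 ± 2.63% in female C57BL/6J libraries.

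The functional partners of these genes, from lists chosen with earlier results of these data known, were counted for strain in the same edgeR fit. In the list of tropomyosins and thin filament partners, 11 of 15 genes other than Tpm3 and Tpm3-rs7 passed the test, 5 of them up and 6 down in DBA/2J, with a median log2 difference of 0.03 over the list, against 0.0051 over all genes and 50% of all genes called. Tmod4, Tmod3 and Tmod1 are tropomodulins, which cap the pointed ends of actin filaments. Tmod4 rose by a log2 of 1.74 (SE 0.0965, edgeR adjusted p 2.1e-22), Tmod3 rose by 0.94 (SE 0.0312, adjusted p 1.5e-32) and Tmod1 fell by 0.64 (SE 0.0306, adjusted p 3.1e-25) in DBA/2J. Of the other tropomyosins, Tpm4 differed by −0.34, Tpm1 by −0.16 and Tpm2 by 0.19 (edgeR adjusted p 6.4e-12, 1.8e-11 and 0.0219), and Actb, cytoplasmic beta actin, by −0.40 (adjusted p 1.2e-19).

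Among cyclophilins and partners of collagen folding in the endoplasmic reticulum, 9 of 21 genes passed, beside the same 50% of all genes, of which 3 rose and 6 fell in DBA/2J (median −0.02). The nuclear cyclophilin Ppil1, a spliceosome component, fell by 0.56 and the collagen chaperone Fkbp10 fell by 0.47 on the log2 scale (edgeR adjusted p 3.9e-25 and 8.0e-13). Nktr rose by 0.14 and Ppif, the mitochondrial cyclophilin, by 0.11 (edgeR adjusted p 2.5e-06 and 7.6e-06). In the small subunit of the mitochondrial ribosome, 16 of 30 genes passed (50% of all genes), of which 12 rose and 4 fell (median 0.05), among them Mrps14 at 0.44, Aurkaip1 at 0.25 and Ptcd3 at −0.13 (edgeR adjusted p 1.9e-17, 5.0e-13 and 8.9e-08). Among decarboxylases that use pyridoxal phosphate and enzymes of vitamin B6, 7 of 13 passed (50% of all genes), of which 4 rose and 3 fell (median 0.04), among them Odc1, ornithine decarboxylase, at −0.53 and Ddc, aromatic amino acid decarboxylase, at −0.56 (edgeR adjusted p 3.9e-21 and 3.0e-11). With RLE size factors and with DESeq2 these counts of calls were the same in each list and direction, and no called gene had the other sign.

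For transcript usage between strains, where 25.7% of all genes were called, the lists gave 5 of 11, 3 of 16, 7 of 25 and 3 of 10 genes in the same order. In Tmod3, the transcript with the largest difference was Tmod3-201, with 58.2 ± 3.39% in DBA/2J and 74.6 ± 2.64% in C57BL/6J (limma adjusted p for the gene 3.9e-43). In Tpm2 it was Tpm2-203, with 46.4 ± 10.4% in DBA/2J and 60.6 ± 7.87% in C57BL/6J (limma adjusted p 1.2e-05), and in Ptcd3 it was Ptcd3-201, with 65.1 ± 3.62% in DBA/2J and 71.9 ± 3.09% in C57BL/6J (limma adjusted p 2.2e-27). Other transcripts were higher in DBA/2J. Tmod4-204 held 27.9 ± 11.9% in DBA/2J and 12.1 ± 19.6% in C57BL/6J (limma adjusted p for the gene 0.00137), Tmod2-202 held 96.5 ± 2.48% in DBA/2J and 87.2 ± 4.93% in C57BL/6J (limma adjusted p 0.000281), and Mrps34-201 held 73.0 ± 3.72% in DBA/2J and 67.5 ± 3.97% in C57BL/6J (limma adjusted p 8.2e-10). These differences are smaller in percentage points than the largest of Pdxdc1, Dap3 and Ppib. Those genes were chosen on this contrast, so nothing is read from it. Tmod3-201 (−16.4 points), Tmod4-204 (15.8) and Tpm2-203 (−14.2) differed by more than Tpm3-202 (−13.8), the largest difference in Tpm3.

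For ethanol, conditioning, sex and the differences between strains, no gene of the 4 lists was called for gene counts by edgeR. DESeq2 called 1, Ppif, for ethanol in DBA/2J (log2 difference 0.10, DESeq2 adjusted p 0.0475), where edgeR gave an adjusted p of 0.122. For usage, all calls fell in the mitochondrial list. The usage calls of the lists, here and for strain, come from limma alone. They were not looked at with diffSpliceDGE or with libraries left out. Whether any of them rests on 1 library, as the Tpm3 calls above did, was not tested. Under ethanol in DBA/2J, 2 of 25 genes were called, beside 1.37% of all genes tested. They were Chchd1 and Mrps18a (limma adjusted p for the gene 0.0311 and 0.0362). The transcript with the largest difference in mean share was Chchd1-204 in Chchd1, at 7.44 ± 1.66% in EtOH and 5.51 ± 2.64% in Saline libraries. In Mrps18a it was Mrps18a-205, at 9.67 ± 4.69% in EtOH and 7.54 ± 4.47% in Saline libraries. Mrps18a was also called for conditioning in DBA/2J (limma adjusted p 0.0397, background 0.526%) and for the difference of the ethanol effects between strains (limma adjusted p 0.0108, background 1.22%). Mrps23 was called for sex (limma adjusted p 0.00868, background 1.31%), with Mrps23-201 at 23.3 ± 7.71% in male and 17.6 ± 10.4% in female libraries.

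The genes whose counts varied most like each of the 5 were found over the 63 libraries by Pearson's r of log2 CPM after subtracting the 16 group means. Libraries share depth and tissue makeup, so r is a description, with no p. The 3 nearest genes were Dnajc5 (0.73), Grb2 (0.71) and Ankrd46 (0.69) for Dap3, and Phf23 (0.67), P4hb (0.65) and Ptpn11 (0.63) for Pdxdc1. They were Pon2 (0.66), Tspan3 (0.65) and Etfa (0.61) for Ppib, Mllt11 (0.65), Nrg3 (0.65) and Rabgap1 (0.64) for Tpm3, and Zdhhc6 (0.57), Pa2g4 (0.49) and Mid1 (0.48) for Tpm3-rs7. None of the 5 was among another's 3 nearest, and between them r was highest for Pdxdc1 and Ppib (0.47) and for Dap3 and Tpm3 (0.46) and lowest for Dap3 and Ppib (−0.24).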

How the data were processed

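Dorsal hippocampus RNA was kept in RNAlater, extracted with Trizol and RNeasy columns and read from one end (75 nt, NextSeq) from TruSeq stranded mRNA libraries, per the labels' protocols. The authors deposited whole-number read counts per gene and, in a second table, estimated counts per transcript, of which 46.8% of the values were not whole. The submitters' processing notes name fastp, HISAT2, featureCounts, Salmon, DESeq2 and the build GRCm38, without versions or roles. Every column matched a listed library by title, and 0 columns belonged to none. Identifiers of 55141 genes and 115332 transcripts were found in GENCODE M21, and 1.25% of the estimated counts lay on transcripts that were not. No 2 libraries held identical values.

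A share is a transcript's estimated count divided by the sum over its gene's transcripts in a library. Levels in CPM were divided by the library's total in the same table. Gene counts were tested with edgeR 4.0.16 (quasi-likelihood, TMM, filterByExpr with a minimum count of 10, which kept 19974 genes holding 99.9% of the counts; TMM factors 0.959 to 1.05) in R 4.3.3. Estimated counts were rounded to whole numbers and tested for usage with voom and diffSplice in limma 3.58.1, where a transcript had 10 or more counts in 3 or more libraries and 5% or more of its gene over all libraries (26770 transcripts of 9511 genes). All 63 libraries entered each fit, with 1 coefficient per group and equal-weight contrasts, two-sided, with Benjamini-Hochberg adjustment over all features of a contrast and calls at 0.05. The scripts were tested on simulated data. Intervals are the estimate ± 1.96 SE.

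The genes named were the 5 members, their transcripts with a mean share of at least 5% in either strain, up to 6 called genes per list, contrast and direction by smallest p, and the 3 genes most correlated with each member. Not every such list gene is named. The members and the lists were chosen with earlier results of these data known. Alternatives were DESeq2 1.42.0, RLE size factors, all genes kept without a count filter, transcript counts summed per gene, other share filters, diffSpliceDGE, title number as a block, either range of title numbers alone, and leaving out each title number. Sequences were read from the GENCODE M21 transcripts and the GRCm38 coordinates in its annotation. Symbols in correlations without a name, or of the Gm or Rik kind, were left out.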

Additional observations from a re-analysis of the deposited data

Results flagged for a closer look

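Shares and levels were compared within each strain by drug and conditioning combination (7 or 8 libraries), for 18 measures, and 11 of 144 such groups held a library far from the rest. For normally distributed values, chance gives this in about 1 in 20 groups, and no explanation was tested. That rate does not hold for Pdxdc1-204 in DBA/2J, which was at 0 in 24 of 32 libraries. Several of the measures are also parts of one another. For Pdxdc1-201, a female FC EtOH C57BL/6J library held 49.1% of the gene's counts, against 44.3% in the next. For Pdxdc1-204, the highest shares in DBA/2J were 0.763% in a female FC EtOH library (next 0.301%), 0.715% in a male noFC EtOH library (others at 0) and 0.190% in a male FC Saline library (others at 0). For Dap3-208, a male noFC EtOH C57BL/6J library held 21.1%, against 18.6% in the next, and for the Dap3 gene count another of that group stood at 73.0 CPM, against 66.6 CPM in the next.

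For Tpm3-rs7 gene counts, a female noFC EtOH DBA/2J library stood at 43.9 CPM, with the next at 41.8 CPM, and a female FC Saline DBA/2J library was the lowest of its group at 38.4 CPM, with the next at 41.2 CPM. That Saline library was also lowest in the share of Tpm3-rs7 in the pair's transcript counts, 54.8% with the next at 58.3%. In a male noFC Saline C57BL/6J library, Tpm3-rs7 stood at 0.0762 CPM and 0.0510% of the pair, below the next at 0.377 CPM and 0.252%.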

How the results depend on the processing

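No alternative but one called any of the 5 genes for ethanol, conditioning, sex or their differences between strains. Keeping transcripts under 5% of their gene called 1 gene, Tpm3, in 3 usage comparisons (ethanol and conditioning in DBA/2J, and conditioning by strain). Leaving out in addition the 1 DBA/2J library without Tpm3-214, an alternative added after seeing the data, called 0 in all 7. The lowest adjusted p of a member was 0.434 for gene counts and 0.108 for usage when a title number was left out, 0.609 with DESeq2 and 0.113 with diffSpliceDGE. The gene count as denominator gives a ratio between 2 sets of counts, not a share. The strain difference in it was −38.3 points for Tpm3-201, −34.7 for Tpm3-202 and 15.0 for Tpm3-203. It was −44.2 for Ppib-202 and 40.6 for Ppib-201, against −41.9 and 41.9 with the transcript sum. Apart from those of Tpm3, strain differences moved by less than 1 SD, taken as the root of the 2 strains' mean variance, although the Ppib values moved by more than the SD within DBA/2J.

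The labels do not say that a title number marks a shared animal, litter or day, so the libraries were not treated as paired. Of 93 pairs with the same number, 32 had a correlation above 0.1 (r −0.52 to 0.48). No expected number was worked out, so this does not decide whether libraries with the same number are alike. For 27 of 63 libraries the best correlated library had the same number. It was sought only among other groups of the same strain and sex, which hold few title numbers. No expected number was worked out for this either, so it is at most a hint from the data, not from the design. The fit with title number as a replicate block could not test strain or sex. For the other comparisons it called 0 members (lowest adjusted p 0.457 for gene counts and 0.400 for usage). The count of all genes called for ethanol in DBA/2J was 109 with the block, against 59 without it. That count was 107 with DESeq2, 33 without the filter, 73 and 15 within the title number ranges and 16 to 118 with a number left out. For usage under ethanol in DBA/2J, 130 genes were called, against 71 at a share of 10%, 409 with no share filter, 38 with diffSpliceDGE, and 51 and 43 within the ranges.

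Depth and the few stretches of its own limit Pdxdc1-204 in DBA/2J, and the deposited counts limit any split of reads between Tpm3 and Tpm3-rs7.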
